A study of Mus musculus with 6 samples.

Results

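Counts of 9 genes that encode the TGF-β ligands and the proteins that process, store, display, and activate latent TGF-β were compared between TEff and TRM-like CD8+ T cells. The genes, *Tgfb1*, *Tgfb2*, *Tgfb3*, *Furin*, *Ltbp3*, *Ltbp4*, *Lrrc32*, *Nrros*, and *Thbs1*, were selected by name, out of 57126 genes in the deposited counts, with their differences between the groups in these same counts already known. Their group differences are therefore given as a description, and no p-value is attached to any of them. CD8+ T cells from the lymph nodes and spleens of OT-I transgenic mice, whose T cell receptor recognizes an ovalbumin peptide, were cultured with nano-aAPCs, nanoparticles that carry the peptide-MHC complex and anti-CD28. On day 6, total RNA was sequenced from 3 samples expanded with mIL-2 alone, called TEff, and 3 samples, called TRM-like, that were given mTGF-β and mIL-15 in addition to mIL-2. Both groups carry the OT-I transgene and both received nano-aAPCs and mIL-2, and IL-15 and TGF-β were added together, so that the contribution of either cytokine cannot be told apart. The labels do not say whether the replicates came from separate animals or cultures, and the p-values given for other genes then measure only the spread between these samples, which may be technical.

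TGF-β is made as a dimeric precursor that the protease furin cuts in the secretory pathway. The mature growth factor stays wrapped in its own propeptide, the latency-associated peptide, and cannot bind its receptors in this form. Latent TGF-β is tethered to extracellular matrix by latent TGF-β binding proteins (LTBP) or to the surface of the producing cell by GARP, the product of *Lrrc32*, or by NRROS, and it is released by integrins that pull on the propeptide or by proteins such as thrombospondin-1. In CD8+ T cells, active TGF-β induces the residency integrin CD103 and restrains effector functions, and TGF-β1 is regarded as the main isoform made by lymphocytes.

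Total counts ranged from 18319013 to 23622621 per sample. The CD8+ T cell markers were high in every sample, with the 7 genes of the list (*Cd3e*, *Cd3d*, *Cd8a*, *Cd8b1*, *Trac*, *Lck*, and *Cd2*) summing to 2104 to 2259 CPM in TEff and to 2583 to 3121 CPM in TRM-like samples, where CPM denotes counts scaled to the effective library sizes of edgeR's TMM method. *Cd4* had 0 to 2 counts in every sample. TRM-like replicate 3 stood apart from the other TRM-like samples. Over 14822 genes, the chi-square per gene between its counts and those of TRM-like replicates 1 and 2 was 96.3 and 112, compared with 7.26 between replicates 1 and 2, and it was 41.9, 82.4, and 37.4 against TEff replicates 1, 2, and 3. TRM-like replicates 1 and 2 had at least 1 count in 35130 and 35559 genes, and the other 4 samples in 24229 to 24908 genes. TEff replicate 2 also differed from its group, at 26.1 and 25.4 against TEff replicates 1 and 3, compared with 3.73 between those samples. The fold changes of the tested genes among the 9, other than *Thbs1*, and the counts of called genes are therefore given with and without TRM-like replicate 3, as are the fold changes of most other called genes.

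Values set against each other between genes are CPM per kb of the gene length in the deposited file. A gene was called when its adjusted p in edgeR's quasi-likelihood test over all 26154 tested genes was below 0.05 and its log2 fold change, TRM-like minus TEff, was beyond 0.58 in either direction. Of the 9 genes, 8 had at least 1 count in at least 3 samples and were tested, and *Tgfb2* was not. Because the 9 genes were chosen with their differences known, meeting the thresholds, in any number of settings, describes them and does not test them. *Tgfb3* met the thresholds with a higher level and *Nrros* with a lower level in TRM-like cells, 1 gene in each direction, where 1.52% of all tested genes were called higher and 1.48% lower. Without TRM-like replicate 3, *Tgfb3*, *Furin*, and *Ltbp3* met them with higher and *Lrrc32* and *Nrros* with lower levels, where 6.38% and 7.67% of 25478 genes were called higher and lower. All TRM-like samples were above all TEff samples for *Tgfb3* and *Furin*, as for 10.6% of tested genes, and all were below for *Ltbp4* and *Nrros*, as for 9.73%.

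**Figure D1:**
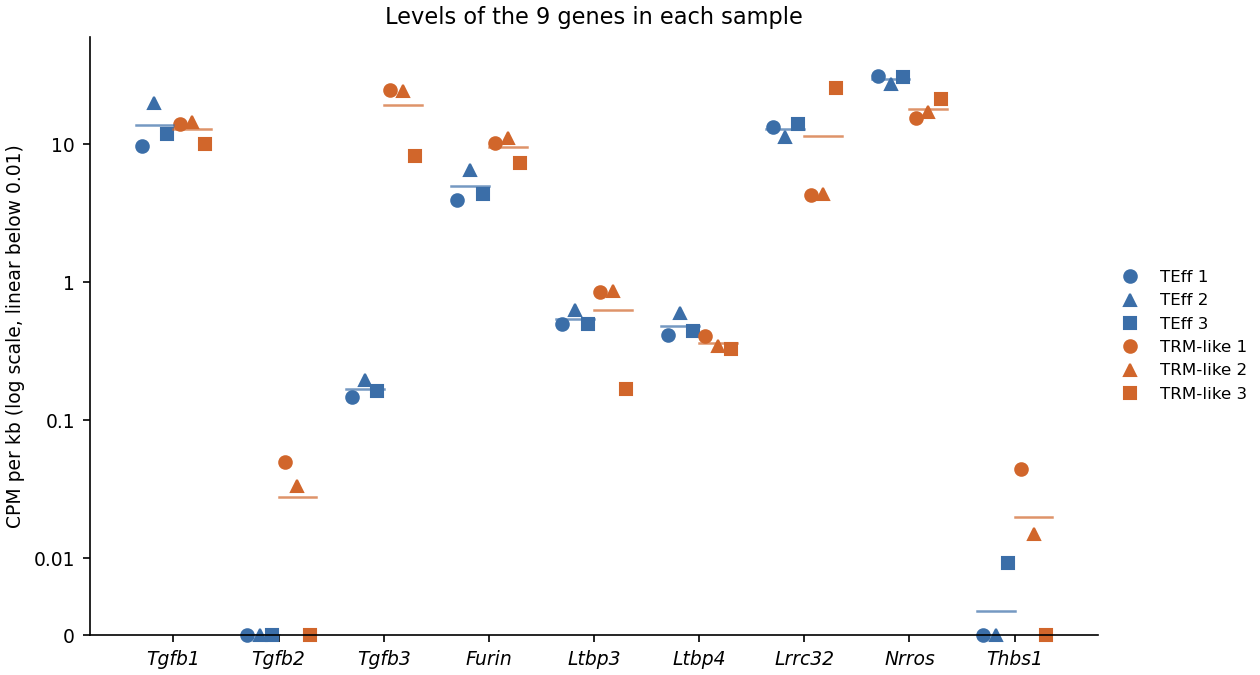
Level of each of the 9 genes in every sample, in CPM per kb on a log axis that is linear below 0.01. Points are samples (blue, TEff and orange, TRM-like, with a shape for each replicate number) and short lines are group means. *Tgfb3* separates the groups by the widest gap, and TRM-like replicate 3 lies away from TRM-like replicates 1 and 2 for *Tgfb3*, *Ltbp3*, and *Lrrc32*.

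*Tgfb3*, which encodes TGF-β3, an isoform best known from palate and lung development and made by some T helper cells, was nearly silent in TEff cells and among the well-expressed genes in TRM-like cells. It had 11, 13, and 10 counts in TEff replicates 1 to 3 and 1925, 1884, and 598 counts in TRM-like replicates 1 to 3. Every TRM-like sample was far above every TEff sample, with TRM-like replicate 3 at 0.332 times the mean of the other TRM-like samples. The level was 0.571 ± 0.0792 CPM in TEff and 64.6 ± 32.0 CPM in TRM-like cells (SD, n = 3 each), a 113-fold ratio of means, and without TRM-like replicate 3 the ratio was 145-fold. The log2 fold change was 6.81 (SE 0.50), or 7.17 (SE 0.16) without that replicate. Among 10881 protein-coding genes that reached 10 counts in all samples, ordered by mean CPM per kb, *Tgfb3* stood at position 10804 in TEff and at position 2643 in TRM-like cells. In these bulk samples, more cells expressing a gene and more RNA per cell cannot be told apart.

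*Tgfb1*, which encodes TGF-β1, was expressed at similar levels in both groups. The values were 21.0, 43.1, and 25.9 CPM in TEff replicates and 30.5, 31.4, and 21.9 CPM in TRM-like replicates. The groups overlapped, and the widest spread was within TEff, where replicate 2 was above the other samples of both groups. The log2 fold change was -0.10 (SE 0.26), and it changed sign to 0.04 (SE 0.22) without TRM-like replicate 3 and to 0.25 without TEff replicate 2.

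*Tgfb2*, the third ligand, had 0 counts in all TEff samples and 6, 4, and 0 counts in TRM-like replicates 1, 2, and 3. A count of 0 allows up to 3 counts, which corresponds to 0.137 to 0.164 CPM of the library total in the TEff samples and to 0.142 in TRM-like replicate 3, a limit for counting error only. *Thbs1*, which encodes thrombospondin-1, a platelet and stromal protein that can release TGF-β from its propeptide, was as low, with 0, 0, and 1 counts in TEff and 6, 2, and 0 in TRM-like samples. To set these counts against a background, 20 genes of liver, pancreas, nerve, heart, kidney, lung, and eye were counted in the same libraries. Of these, 15 and 17 had a count in TRM-like replicates 1 and 2, and 2 to 4 in each of the other samples. *Tgfb2* had 1.15 and 0.769 reads per kb in TRM-like replicates 1 and 2, levels that 5 and 13 of the 20 genes reached, and *Thbs1* had 1.03 and 0.342 reads per kb, which 5 and 17 of the 20 reached. No fold change is given for either gene, since their counts appeared in the same libraries as those of genes that T cells are not known to express.

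**Figure D2:**
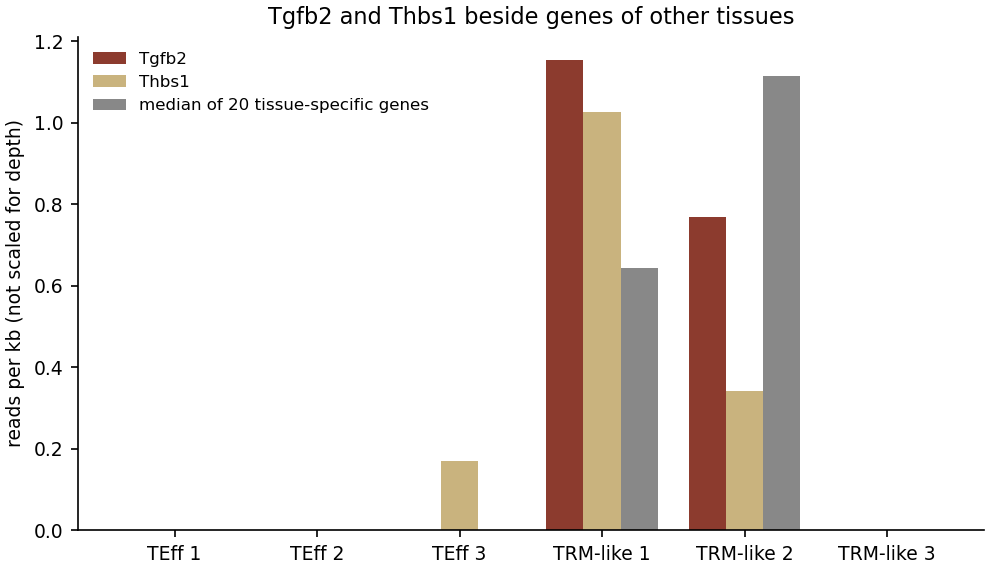
Reads per kb of *Tgfb2*, *Thbs1*, and the median of 20 genes specific to other tissues, in each sample, not scaled for depth. The bars for *Tgfb2* and for the background genes are above 0 in TRM-like replicates 1 and 2 alone, with background medians of 0.644 and 1.11 reads per kb.

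The make-up of the ligand transcripts therefore differed between the groups. *Tgfb3* supplied 1.51%, 0.973%, and 1.35% of the summed CPM per kb of the 3 ligand genes in TEff replicates 1 to 3, and 63.8%, 62.7%, and 44.7% in TRM-like replicates 1 to 3. *Tgfb1* transcripts were 79.9 ± 19.4 times as abundant per kb as those of *Tgfb3* in TEff cells (SD, n = 3), and in TRM-like cells the order was turned in replicates 1 and 2, at 0.566 and 0.594, and kept in replicate 3, at 1.24. The summed ligand level was 9.82, 20.001, and 12.1 CPM per kb in TEff and 38.9, 38.8, and 18.2 CPM per kb in TRM-like replicates. The sum of TRM-like replicate 3 was below that of TEff replicate 2, so that the groups overlapped in the total though not in the *Tgfb3* share.

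**Figure D3:**
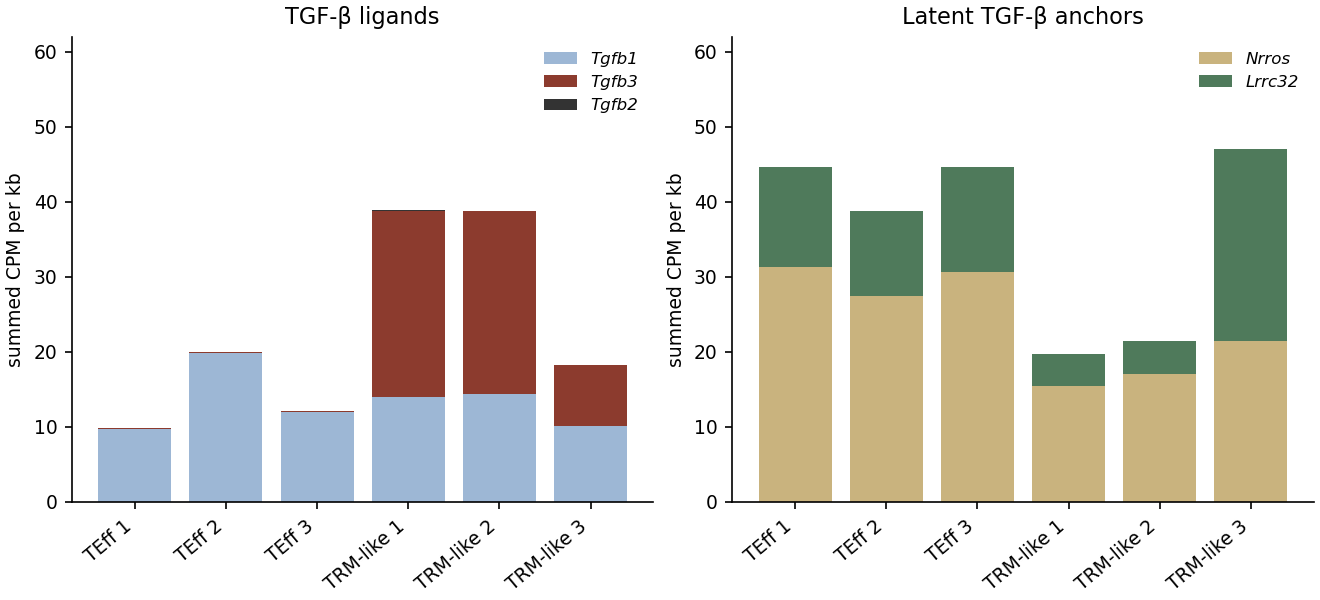
Stacked CPM per kb in each sample, for the 3 ligand genes in the left panel and for the latent TGF-β anchors *Nrros* and *Lrrc32* in the right panel. *Tgfb3* forms 44.7% to 63.8% of the ligand bar in TRM-like and at most 1.51% in TEff samples, and *Lrrc32* forms 54.5% of the anchor bar in TRM-like replicate 3 but 21.7% and 20.3% in TRM-like replicates 1 and 2.

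The sequences upstream of the ligand genes that were expressed, *Tgfb1* and *Tgfb3*, are shown because the levels of these paralogs differed so unequally between the groups, together with that of *Nrros*, the gene that met the thresholds in the other direction. They were read on the strand of the gene from the GRCm39 assembly, for the 250 bases before the start of the GENCODE canonical transcript. Stretches inside exons of the gene's other transcripts were left out, except for the last 30 bases before the *Tgfb3* start. Capitals mark matches to the motifs searched, on either strand: CAGAC (the core SMAD-binding element), TGACGTCA (the cAMP response element), TGANTCA (AP-1), TGTGGT (RUNX), TTCNNNGAA (the STAT5 GAS site), and TATAAA (the TATA box).
Tgfb1, chr7:25386140-25386389, plus strand, bases -250 to -1: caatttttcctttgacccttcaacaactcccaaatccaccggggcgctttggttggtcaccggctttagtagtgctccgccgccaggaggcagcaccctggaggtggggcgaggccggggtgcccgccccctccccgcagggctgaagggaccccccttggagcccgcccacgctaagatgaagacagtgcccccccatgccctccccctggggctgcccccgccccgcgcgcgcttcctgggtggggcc
Tgfb3, chr12:86125896-86126071, minus strand, bases -250 to -75: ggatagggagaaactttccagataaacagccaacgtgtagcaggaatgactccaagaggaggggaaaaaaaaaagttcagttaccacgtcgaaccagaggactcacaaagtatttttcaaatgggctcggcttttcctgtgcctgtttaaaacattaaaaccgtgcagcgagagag
Tgfb3, chr12:86125822-86125851, minus strand, the 30 bases before the start: atacgtcatgggagggaggTATAAAatttc
Nrros, chr16:31984522-31984653, minus strand, bases -250 to -119: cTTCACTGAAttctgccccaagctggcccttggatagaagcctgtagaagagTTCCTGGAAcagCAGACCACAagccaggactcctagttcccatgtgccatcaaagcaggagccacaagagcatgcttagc

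Within the 250 bases, *Tgfb3* held a TATA box at bases -11 to -6 and no other motif of the set, and *Tgfb1* held none. A TATA box was found in 7.87% of the windows of the same length before 14484 tested protein-coding genes. The *Tgfb1* window was GC-rich at 69.6%, the *Tgfb3* window was at 49.2%, and the median over all windows was 56.0%. *Nrros* held STAT5 GAS sites at bases -249 to -241 and -198 to -190, a motif found in 6.79% of windows. It also held a core SMAD-binding element at bases -186 to -182 that overlaps a RUNX site at -183 to -178, where 42.1% and 12.5% of windows held these motifs. The core SMAD-binding element was also found before *Tgfb2*, *Ltbp3*, and *Thbs1*. A RUNX site was found before *Ltbp3*, and AP-1 sites before *Thbs1*. The windows of *Furin*, *Lrrc32*, and *Ltbp4* held none of the motifs searched. The cAMP response element was in 1.95% and the AP-1 site in 4.82% of all windows, and a match or its absence is a property of these letters only.

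*Furin*, whose product cuts the TGF-β precursors and many other proproteins, was higher in TRM-like cells. It measured 18.5, 30.6, and 20.3 CPM in TEff and 47.7, 51.9, and 34.2 CPM in TRM-like replicates. Even the lowest TRM-like sample, replicate 3, was above the highest TEff sample, replicate 2. The ratio of means was 1.93, with a log2 fold change of 0.95 (SE 0.23) over all samples and 1.10 (SE 0.17) without TRM-like replicate 3. Over all samples *Furin* did not meet the thresholds, and it met them in 6 of 16 settings of the test, among them DESeq2 and the fits without TRM-like replicate 3 and without TEff replicate 2. *Pcsk7*, a proprotein convertase of the same family, measured 41.5 ± 0.391 CPM in TEff and 44.8 ± 2.60 CPM in TRM-like cells, with a log2 fold change of 0.11 (SE 0.12, edgeR adjusted p = 0.727). It was named as one of the 3 most abundant uncalled genes of the latency and activation list given below. Its lack of a call was thus fixed by that choice, and it is no comparison for *Furin*.

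The matrix tethers were scarce in both groups. *Ltbp3*, which encodes a binding protein that joins latent TGF-β in the secretory pathway, measured 2.61, 3.29, and 2.60 CPM in TEff and 4.40, 4.45, and 0.876 CPM in TRM-like replicates. TRM-like replicates 1 and 2 were above every TEff sample, and replicate 3 was below every one, at 0.198 times the mean of the other TRM-like samples. The log2 fold change was 0.20 (SE 0.49) over all samples and 0.64 (SE 0.20) without TRM-like replicate 3, and it was -0.08 and -0.10 without TRM-like replicates 1 and 2. *Ltbp4*, a tether found mainly in elastic tissues, measured 2.38, 3.44, and 2.54 CPM in TEff and 2.35, 2.01, and 1.89 CPM in TRM-like replicates. The groups did not overlap but nearly touched, and the log2 fold change was -0.42 (SE 0.25), or -0.36 (SE 0.25) without TRM-like replicate 3. *Ltbp4* did not meet the thresholds in any of 16 settings.

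*Lrrc32*, which encodes GARP, the surface anchor of latent TGF-β on regulatory T cells and platelets, was the gene in which TRM-like replicate 3 departed farthest from its group. It measured 61.1, 51.7, and 64.2 CPM in TEff and 19.7, 19.9, and 117 CPM in TRM-like replicates. TRM-like replicates 1 and 2 were below every TEff sample, and replicate 3, at 5.94 times their mean, was above every one. The log2 fold change was accordingly -0.17 (SE 0.61) over all samples, -1.58 (SE 0.13) without TRM-like replicate 3, and 0.22 and 0.21 without TRM-like replicates 1 and 2. Of the regulatory T cell markers, *Foxp3* had 14, 21, and 6 counts in TEff and 20, 16, and 29 in TRM-like replicates, the highest in replicate 3, while *Cd4* had 0 counts in that sample. *Ikzf4* had 110, 76, and 73 counts in TEff and 354, 366, and 482 in TRM-like replicates, also highest in replicate 3, and *Zbtb7b*, with 766, 795, and 701 counts in TEff and 519, 574, and 366 in TRM-like replicates, was lowest there. The 4 genes of that list together summed to 40.7 to 45.2 CPM in TEff and to 38.9 to 41.8 CPM in TRM-like samples, with *Ikzf4* and *Zbtb7b* differing in opposite directions, and the platelet genes *Pf4* and *Ppbp* had 0 to 2 counts in every sample. The part of such cells in the *Lrrc32* values was not tested.

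*Nrros*, whose product tethers latent TGF-β on myeloid cells and microglia, was the most abundant of the 9 genes per kb in TEff cells and was lower in TRM-like cells. It measured 124, 109, and 121 CPM in TEff and 61.3, 67.5, and 84.9 CPM in TRM-like replicates. The lowest TEff sample was above the highest TRM-like sample, which was again replicate 3. The level was 118 ± 8.10 CPM in TEff and 71.2 ± 12.2 CPM in TRM-like cells (SD, n = 3 each), 1.66-fold higher in TEff, with a log2 fold change of -0.73 (SE 0.15), or -0.88 (SE 0.11) without TRM-like replicate 3. It met the thresholds in 11 of 16 settings and did not in the 5 that left out a single sample other than TRM-like replicate 3. Of the myeloid markers, *S100a8* and *S100a9* had no count in any sample, and *Lyz2* had 0 counts in all samples but TRM-like replicate 2, which had 14. Over the samples, *Csf1r* had 1 to 11 counts, *Itgam* 0 to 12, *Adgre1* 0 to 6, and *Cd68* 56 to 76. *Fcgr3* had 15, 35, and 21 counts in TEff and 121, 140, and 3 in TRM-like replicates. The 8 myeloid genes together summed to 4.44 to 6.07 CPM in TEff and to 9.19, 10.7, and 2.77 CPM in TRM-like replicates, mostly from *Cd68* and *Fcgr3*. The part of such cells in the *Nrros* values was not tested. Of the markers of other cells, the B cell list was at 6.26 to 11.2 CPM, the dendritic list at 2.54 to 6.48 CPM, the platelet list at 0.553 to 0.995 CPM, and the erythroid list at 0.608 to 1.13 CPM over the samples, and the stromal list at 19.5 to 63.9 CPM was almost wholly *Pecam1*, with *Col1a1* at 2 to 15 counts.

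The surface anchors *Lrrc32* and *Nrros* together summed to 44.7, 38.8, and 44.6 CPM per kb in TEff and to 19.8, 21.4, and 47.1 CPM per kb in TRM-like replicates. TRM-like replicates 1 and 2 were below every TEff sample and TRM-like replicate 3 was above them. *Lrrc32* made up 29.9%, 29.1%, and 31.4% of that sum in TEff samples.

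**Figure D4:**
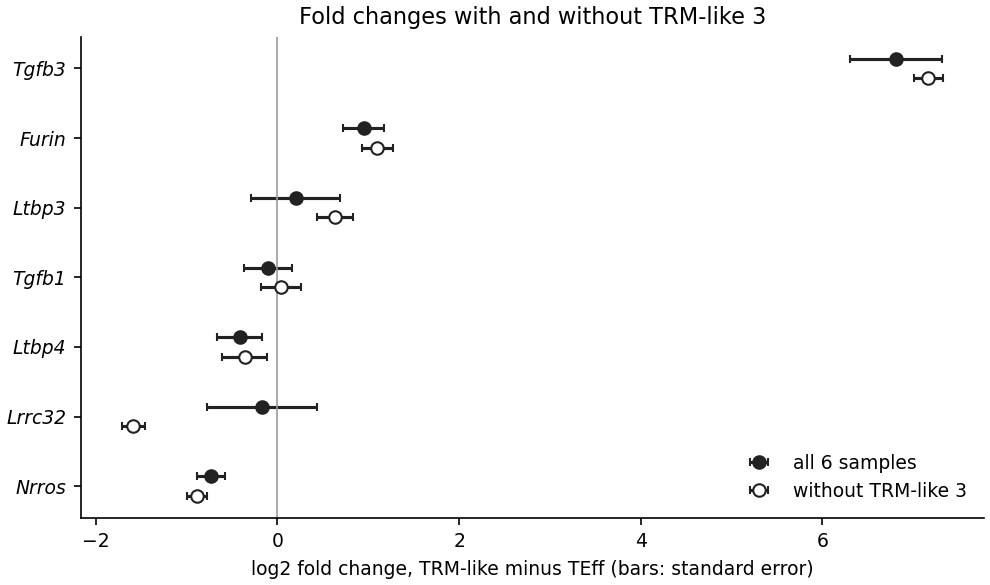
Log2 fold change, TRM-like minus TEff, with its standard error for the 7 genes that reached 10 counts in all samples, from all 6 samples (filled) and without TRM-like replicate 3 (open). *Tgfb3* is at 6.81 and 7.17, and *Lrrc32* moves from -0.17 to -1.58 when that replicate is left out.

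Ordered by mean CPM per kb in TEff cells, *Nrros* (29.8) came first, ahead of *Tgfb1* (13.8) and *Lrrc32* (12.9), whose ranges over samples overlapped. *Furin* (4.94) followed, then *Ltbp3* (0.546) and *Ltbp4* (0.484), which overlapped, and *Tgfb3* (0.169) was above only *Thbs1* and *Tgfb2*. In TRM-like cells *Tgfb3* (19.1) had the highest mean, with a range that overlapped that of *Nrros* (18.0). *Tgfb1* (12.9), *Lrrc32* (11.4), and *Furin* (9.53) came next, each overlapping its neighbour in this order, and *Ltbp3* (0.625) and *Ltbp4* (0.362) overlapped far below them. The ligand *Tgfb3* thus moved from below *Ltbp4* to the top by mean. The place of *Lrrc32* above *Furin* in TRM-like cells rested on replicate 3, since *Lrrc32* was at 4.29 and 4.35 CPM per kb and *Furin* at 10.2 and 11.1 CPM per kb in TRM-like replicates 1 and 2.

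The 9 genes lie on 6 chromosomes of GRCm39, and 4 of them, *Tgfb1*, *Ltbp4*, *Furin*, and *Lrrc32*, lie on chromosome 7, with *Tgfb1* (25386390 to 25404506) and *Ltbp4* (27004086 to 27037117) 1599580 bases apart. *Tgfb3* (chromosome 12, 86102756 to 86126301, minus strand) overlaps *Ttll5*, a gene on the opposite strand, by 5912 bases. *Ttll5* had 488, 361, and 362 counts in TEff and 444, 386, and 545 in TRM-like replicates and so did not share the pattern of *Tgfb3*. The other opposite-strand genes that overlap *Tgfb3* were at low counts that were higher in TRM-like samples, with 2, 0, and 0 in TEff and 18, 15, and 4 in TRM-like replicates for *Gm37804*, and 0, 1, and 0 and then 3, 6, and 1 for *Gm48008*. The libraries were made with a stranded kit, but the strand setting of the counting was not given in the sources used here. If strand was not used in the counting, reads in such an overlap cannot be told apart.

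The nearest tested protein-coding gene on each side of each of the 9 genes was also examined, 18 in all, and 4 of them were called. Of all tested genes, 1.52% were called higher and 1.48% lower. Shared regulation with the neighbouring genes was not tested. *Fes*, a tyrosine kinase gene that lies 527 bases from *Furin*, rose from 1.16 to 1.55 CPM in TEff to 5.03 to 10.04 CPM in TRM-like samples. Its log2 fold change was 2.64 (SE 0.31, edgeR adjusted p = 0.00265), or 2.89 without TRM-like replicate 3. *Ift43*, which encodes a ciliary transport protein and lies 2968 bases from *Tgfb3*, rose by 1.58 (SE 0.34, edgeR adjusted p = 0.0446), from at most 0.869 CPM in TEff to 1.57 to 2.53 CPM, a call that was not made by limma-voom or when any single sample other than TRM-like replicate 3 was left out. *Numbl*, beside *Ltbp4*, rose by 1.22 (SE 0.20, edgeR adjusted p = 0.0144), or by 1.34 without TRM-like replicate 3. *Bex6*, beside *Nrros*, had a log2 fold change of -2.60 (SE 0.52, edgeR adjusted p = 0.0321), or -3.04 without that replicate. That change rests on low levels, 0.658 to 1.55 CPM in TEff and 0.0873 to 0.277 CPM in TRM-like samples. The call of *Numbl* was lost without TEff replicate 1, 2, or 3 or TRM-like replicate 2, and that of *Bex6* without TEff replicate 1 or 3 or TRM-like replicate 1 or 2. Both neighbours of *Tgfb1*, *B9d2* and *Ccdc97*, had log2 fold changes of -0.05 and -0.01 (edgeR adjusted p = 0.932 and 0.983).

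Apart from the 9 genes, 34 genes of latent TGF-β storage, processing, activation, and binding were followed, of which 20 were tested. This list and those that follow were also chosen with earlier results of these data known, so their p-values and counts of called genes are descriptive. None of the 20 was called higher in TRM-like cells by edgeR, DESeq2, or limma-voom, and 4 were called lower by each of them. Over all tested genes, edgeR called 1.52% higher and 1.48% lower. Of the 20, 2 were higher and 5 lower at an unadjusted p below 0.05. The share of all genes at that unadjusted threshold was not computed, for this list or the next, so these counts have no background beside them. The 4 genes that fell were 3 integrin β chains that can pair with the αv chain and the surface receptor *Nrp1*, which binds latent TGF-β. *Itgb1* fell from 673 ± 74.0 to 167 ± 22.4 CPM, with a log2 fold change of -2.01 (SE 0.16, edgeR adjusted p = 0.000374) or -2.14 without TRM-like replicate 3, and *Itgb3* from 55.4 ± 13.3 to 12.2 ± 0.809 CPM, with a log2 fold change of -2.18 (SE 0.18, edgeR adjusted p = 0.000498) or -2.13 without it. *Nrp1* fell from 47.2 ± 5.36 to 6.35 ± 2.95 CPM (SD, n = 3 each), with a log2 fold change of -2.89 (SE 0.32, edgeR adjusted p = 0.00193) or -2.58 without it. *Itgb5* was less abundant and fell from 3.70 ± 0.430 to 1.26 ± 0.571 CPM, with a log2 fold change of -1.56 (SE 0.33, edgeR adjusted p = 0.0391), a call lost when any single sample other than TRM-like replicate 3 was left out. Without TRM-like replicate 3, the same 4 genes were called lower, and *Emilin1*, a matrix protein gene that restrains TGF-β precursor processing, was called higher. In that fit, 6.38% of all tested genes were called higher and 7.67% lower.

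Members of this list that did not pass the test included *Itgav*, the αv chain itself, at 58.5 ± 5.57 CPM in TEff and 75.7 ± 6.77 CPM in TRM-like cells (log2 fold change 0.37, SE 0.13, edgeR adjusted p = 0.228). *Igf2r*, which binds the latency-associated peptide, was the most abundant of them, at 346 ± 4.68 and 281 ± 11.1 CPM (log2 fold change -0.30, SE 0.12, edgeR adjusted p = 0.302). *Itgb8*, which encodes the β chain of a main TGF-β-releasing integrin of immune cells, had 1, 0, and 0 counts in TEff and 2, 5, and 0 in TRM-like samples. The median log2 fold change was 0.29 over the 20 tested genes and -0.30 over the 11 with a mean of at least 10 counts, beside 0.02 and -0.02 over all genes so chosen.

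**Figure D5:**
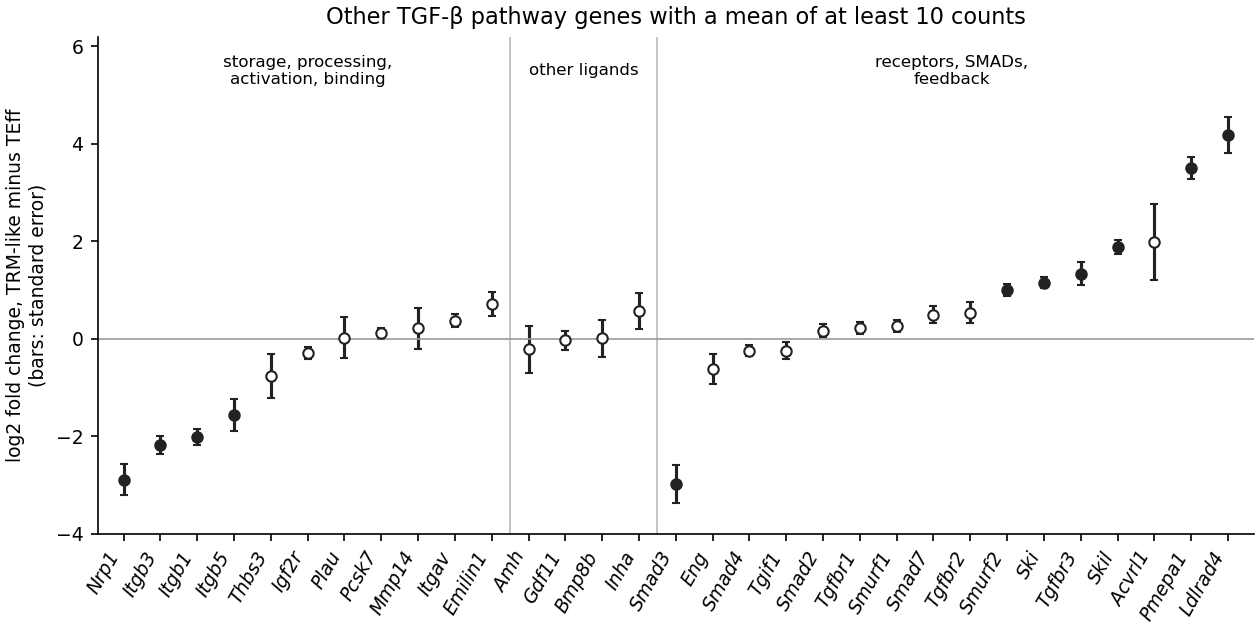
Log2 fold change, TRM-like minus TEff, with its standard error for the other TGF-β pathway genes with a mean of at least 10 counts over the 6 samples. Filled points were called, which were 4 lower genes of storage, processing, activation, and binding, none of the other ligands, and 6 higher and 1 lower of the receptors, SMADs, and feedback genes.

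The other ligands of the TGF-β superfamily (bone morphogenetic proteins, growth and differentiation factors, inhibins, and their kin) showed no change like that of *Tgfb3*. Of 29 genes, 12 were tested, and only 4 of these had a mean of at least 10 counts, so that a change in the others could be missed. EdgeR, DESeq2, and limma-voom each called 0, with 1, *Lefty1*, at an unadjusted p below 0.05 in each. Over all tested genes, edgeR called 1.52% higher and 1.48% lower. The most abundant, *Gdf11*, measured 20.04 ± 4.97 CPM in TEff and 19.6 ± 2.34 CPM in TRM-like cells (log2 fold change -0.03, SE 0.19, edgeR adjusted p = 0.963). *Bmp8b* and *Inha* were at most at 1.22 CPM in any sample, with log2 fold changes of 0.01 (SE 0.38) and 0.57 (SE 0.37). Without TRM-like replicate 3, *Inhbe*, with 1 count in each TEff sample and 6 and 13 in TRM-like replicates 1 and 2, was called higher. It had 0 counts in TRM-like replicate 3. Its higher counts were in the same libraries in which 15 and 17 of the 20 genes of other tissues had a count. The median log2 fold change of the 12 was -0.01.

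Of 16 receptor, SMAD, and feedback genes, 6 were called higher (*Pmepa1*, *Skil*, *Ski*, *Tgfbr3*, *Smurf2*, and *Ldlrad4*) and *Smad3* was called lower. The shares over all tested genes were 1.52% higher and 1.48% lower. *Pmepa1*, an inhibitor induced by TGF-β signaling, had a log2 fold change of 3.51 (SE 0.23, edgeR adjusted p = 0.000151), and 3.68 without TRM-like replicate 3. The call of *Tgfbr3* was lost when any single sample other than TRM-like replicate 3 was left out. *Tgfbr2*, the ligand-binding receptor, had a log2 fold change of 0.54 (SE 0.21, edgeR adjusted p = 0.281), and it was called without TRM-like replicate 3, at 0.73.

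To describe which genes ran most like each of these genes, log2 CPM was correlated over the 6 samples with 14821 other genes that reached 10 counts in all samples. The samples fall in 2 groups and share libraries, so that these values are a description of shape only. *Tgfb3* ran closest to *Sema6d*, a semaphorin gene at 6.86 to 8.25 CPM in TEff and 126, 119, and 68.2 CPM in TRM-like replicates (Pearson’s r = 0.9998), and to *Extl3* (r = 0.9994), whose log2 fold change was only 0.64. *Furin* ran closest to *Usp3* and the long noncoding RNA gene *Gm33887*, and *Nrros* to *Dyrk3* and *Slc3a2* (r from 0.996 to 0.9998). *Lrrc32* ran closest to *Yod1* and *Gemin5* (r = 0.998 for each), both of which were highest in TRM-like replicate 3, and *Ltbp3* to *Klc4* and *Gm57369* (r = 0.998 and 0.993), both of which were lowest in it. *Ltbp4* ran closest to *Clint1* and *Ogt* and *Tgfb1* to *Gm12009* and *Wdr97*, with r from 0.983 to 0.992.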

How the data were processed

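RNA was sequenced from 3 TEff and 3 TRM-like samples, grouped by their labels. The authors deposited raw counts per gene with gene lengths in bases. They trimmed reads with Cutadapt 4.8 and mapped and counted them with Rsubread on a GENCODE annotation of GRCm39, and the submitters' processing notes also list DESeq2 1.40.2. The treatment of multi-mapping reads was not given in the sources used here, and a batch that the methods remove is not named there, so no batch term was fitted. The 9 genes and all gene lists were chosen with earlier results of these data known.

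Symbols and coordinates came from GENCODE M39, which holds 56620 of the 57126 genes. A gene needed a count of 1 or more in 3 samples or more to be tested, which was done with edgeR 4.0.16 (quasi-likelihood, TMM, no block, Benjamini-Hochberg adjustment over all tested genes) in R 4.3.3. The fit was tested on simulated data with known changes. Alternatives were DESeq2 1.42.0, limma-voom (limma 3.58.1), other normalizations and filters, the adjusted p alone, leaving out each sample in turn, and the replicate block. Total counts of 18319013 to 23622621 limit the precision of low genes. The correlation of deviations from the group means between same-numbered samples was -0.292, 0.309, and 0.389 for numbers 1, 2, and 3. The numbers were not taken to pair the samples in the main fit. With 3 samples per group, these correlations cannot exclude a pairing.

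The genes named in the text were drawn from the 9 genes, the called and the 3 most abundant uncalled genes of each list, the 2 genes most correlated with each of the 9, and their neighbours and overlapping genes. Most of the neighbours and overlapping genes and some of the uncalled list genes are not named, and some are not reported here. *Itgb8*, *Emilin1*, *Lefty1*, *Inhbe*, and the single marker genes were named after their values were seen.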

Additional observations from a re-analysis of the deposited data

How the results depend on the processing

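Across all genes, 786 were called, compared with 1264 with DESeq2, 1868 with no filter, 2034 with the replicate block (903 when it was fitted to genes with 10 counts or more in each sample), and 263 to 3579 with 1 sample left out, the highest without TRM-like replicate 3 and the lowest without TEff replicate 1. Of the 9 genes, 2 met the thresholds, 4 with the replicate block (*Furin*, *Lrrc32*, *Nrros*, and *Tgfb3*), 3 with the block and that filter (without *Lrrc32*), and 1 to 5 with 1 sample left out. *Tgfb3* met them in all 16 settings of the fit. The settings refit the same samples, so the tallies for the 9 genes describe the fits and lend the differences no support. Without a single sample, the log2 fold change of *Tgfb1* ranged from -0.29 to 0.25, that of *Ltbp3* from -0.10 to 0.64, and that of *Lrrc32* from -1.58 to 0.22, so that each changed sign. *Ltbp3* was at -0.10 with limma-voom. The other ligands gave 0 to 1 called genes, the other latency and activation genes 3 to 5, and the receptor and feedback genes 6 to 8, with 1 sample left out. The replicate block left the calls of the other ligands as they were and added *Emilin1* to the latency genes and *Acvrl1* to the receptor genes. The cause of these shifts was not tested. Depth limits *Tgfb2* and *Thbs1*, which had at most 6 counts in a sample, and the TEff level of *Tgfb3*, which rests on 10 to 13 counts.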
